A study of Mus musculus with 6 samples.

Results

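The 10 genes described here encode transcription factors of the ETS family that the kinase ERK acts on. They were taken by name from the 31017 genes of the count table, and all 10 were present: the PEA3 group (Etv1, Etv4 and Etv5), the pair Ets1 and Ets2, the ternary complex factors (Elk1, Elk3 and Elk4), and the repressors Etv6 and Erf. Poly(A) RNA was sequenced from 4T1 cells, a mouse mammary carcinoma line, in 3 libraries labelled FGFR2 KO (nucleofected with Cas9 and guide RNAs specific for FGFR2) and 3 control libraries (nucleofected with Cas9 and control guide RNAs). All 6 cultures were grown as gels of collagen I with 10% serum and freed with collagenase. The labels name a pair of collagen concentrations without saying which a library had, so whether the groups shared 1 matrix is not given in the sources used here. They also state neither the time in culture nor whether the edited cells were a pool or a clone. Replicates carry numbers, and nothing says that they were grown separately. The p-values therefore rest on library-to-library spread that could be purely technical.

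ETS factors share a DNA-binding domain that reads a GGAA core, and differ in what ERK does to them. Phosphorylation by ERK activates the PEA3 group, ETS1 and ETS2, lets ELK1 and ELK4 switch on genes together with serum response factor (SRF), relieves repression by ELK3, and drives the repressor ERF out of the nucleus. The genes of the PEA3 group are themselves switched on by FGF and ERK signalling in many tissues, including developing epithelia, and ETV4 and ETV5 are commonly read as transcripts of an active pathway. Transcript counts report the amount of each mRNA and not the phosphorylation of its protein.

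The libraries held 18635037, 19545981 and 20171309 counts in KO replicates 1 to 3 and 18402522, 20447719 and 15531790 counts in control replicates 1 to 3. Fgfr2 itself had 101, 81.2 and 95.2 CPM (the gene's count divided by the library's total after TMM scaling) in KO replicates 1 to 3 and 96.9, 95.9 and 106 CPM in control replicates 1 to 3. These ranges overlapped (log2 fold change -0.11, SE 0.056, edgeR quasi-likelihood adjusted p = 0.113). With each library left out it ran from -0.17 (without KO replicate 1, edgeR adjusted p = 0.0081) to -0.017 (without KO replicate 2, edgeR adjusted p = 0.809), and it was -0.058 without control replicate 3. A count over the whole gene need not fall where guides cause small deletions, so it does not check the label. Fgfr1 averaged 14.2 ± 1.97 CPM in KO and 26.3 ± 0.774 CPM in control libraries (SD, n = 3 each, log2 fold change -0.89, edgeR adjusted p = 2.03e-10), Fgfr3 had a log2 fold change of 0.31 (edgeR adjusted p = 0.0388, and 0.109 with DESeq2), and Fgfr4 had at most 1 count in a library. Epithelial markers were high in both groups (summed level 3896 to 3977 CPM in KO and 4702 to 4816 CPM in control libraries for Epcam, Krt8, Krt18, Krt7 and Cdh1). Of 6 leukocyte markers, Adgre1 and Cd3e were at 0, and the list summed to 5.35 to 7.26 CPM in KO libraries and 12.7 to 15.4 CPM in control libraries, nearly all of it Cd68. Kdr and Tek were at 0 among 5 endothelial markers, which summed to at most 0.715 CPM in KO and 0.818 CPM in control libraries. The 6 fibroblast markers summed to 39.7 to 45.4 CPM in KO and 36.3 to 38.2 CPM in control libraries, most of it Pdgfra, with Lum at 0. Within the lists, 4 epithelial markers were lower in KO libraries and Cdh1 was higher (log2 fold change 0.25, edgeR adjusted p = 1.48e-07). Pdgfra overlapped between the groups and did not pass (edgeR adjusted p = 0.143). The part of these marker differences in the results was not tested.

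Promoter windows of the family were searched for the GGAA core that its proteins read. Windows from 250 bases before to 50 bases after a gene's start were in the RefSeq table (GRCm38.p6) for 8 of the 10 genes, with 12 windows in all, and Etv4 and Ets1 had none there. The stretches printed are for 2 genes of the PEA3 group, which were lower in the KO libraries, and for Elk3 (lower), Erf (higher) and Elk4 (no call), so that they can be set beside the counts. Each lies before the RefSeq start that its window is built on and outside every annotated exon of GENCODE M21. For Etv1 and Etv5 that start is an alternative one, inside the span of the gene as GENCODE M21 gives it. Capitals mark GGAA or its reverse complement TTCC.

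Etv1 chr12:38779932-38780081 (plus strand): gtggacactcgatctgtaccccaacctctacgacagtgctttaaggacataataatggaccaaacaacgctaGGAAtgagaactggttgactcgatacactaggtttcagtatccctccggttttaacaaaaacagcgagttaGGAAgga

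Etv5 chr16:22438369-22438518 (minus strand): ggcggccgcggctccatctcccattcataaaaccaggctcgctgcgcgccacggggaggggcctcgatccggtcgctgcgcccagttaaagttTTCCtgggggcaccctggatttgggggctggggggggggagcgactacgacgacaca

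Elk3 chr10:93311160-93311309 (minus strand): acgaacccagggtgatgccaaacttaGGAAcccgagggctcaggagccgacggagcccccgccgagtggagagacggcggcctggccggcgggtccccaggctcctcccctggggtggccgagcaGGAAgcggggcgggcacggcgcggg

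Elk4 chr1:132007457-132007606 (plus strand): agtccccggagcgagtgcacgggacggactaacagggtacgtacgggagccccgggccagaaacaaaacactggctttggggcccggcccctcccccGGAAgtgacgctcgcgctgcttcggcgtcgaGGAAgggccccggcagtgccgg

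Erf chr7:25250762-25250911 (minus strand): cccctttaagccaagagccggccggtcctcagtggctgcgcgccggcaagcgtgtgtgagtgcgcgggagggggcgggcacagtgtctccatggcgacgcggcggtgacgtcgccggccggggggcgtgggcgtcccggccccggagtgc

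The printed stretches held 2 cores at Etv1, 1 at Etv5, 2 at Elk3, 2 at Elk4 and 0 at Erf. Stretches of the same kind that are not printed held 0 at the other window of Etv5 and 2 and 4 at the other windows of Elk4. Those of Etv6 and Elk1 held 2 and 1. Over whole windows of 300 bases the core occurred 5 times and once in the 2 windows of Etv1, 0 and 6 times in those of Etv5, once at Erf, once at Ets2 and 2 times at Elk3. In the genes without a call it occurred 4, 2 and 6 times in the 3 windows of Elk4, 6 times at Etv6 and 2 times at Elk1. Of all 32851 windows in the table, 96% held it on 1 strand or the other, with a median of 3. The longer ETS motif CCGGAAGT, searched on both strands, was found in 1 of the 12 windows, the first of Elk4 (68 bases before the start, where the printed stretch reads ccGGAAgt), and in 3.89% of all windows. None of the 12 windows held CCGGAAAT (0.767% of all windows), the motifs TGAATGAA (1.3%), TGAATGGA (1.21%), TCAATGAA (0.749%) or TCAATGGA (0.67%) of the repressor CIC, the CArG box read by SRF (1.63%), or the AP-1 motifs TGACTCA or TGAGTCA (5.2%). No window of the 5 changed genes that have one held any of these longer motifs.

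All 10 genes passed the filter on low counts in both groups, and 7 of them changed. Of the 10, 5 were lower in the KO libraries, where 27.5% of all 12158 tested genes were, and 2 were higher, where 27.1% of all were. Together 7 of 10 stood beside 54.6% of all tested genes, so a change was common among genes of any kind. The libraries of the groups did not overlap for 7 of 10 members, with 5 lower in KO and 2 higher, beside 59.5% of all tested genes without overlap (30% lower and 29.5% higher). The members' median log2 fold change was -0.17, beside -0.01 for all tested genes, and their median absolute log2 fold change was 0.30, beside 0.21. Reads of the 10 genes made up 0.121% to 0.122% of the counts in KO libraries and 0.131% to 0.134% in control libraries. In bulk RNA, fewer cells that express a gene and less of its RNA per cell cannot be told apart.

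**Figure D1:**
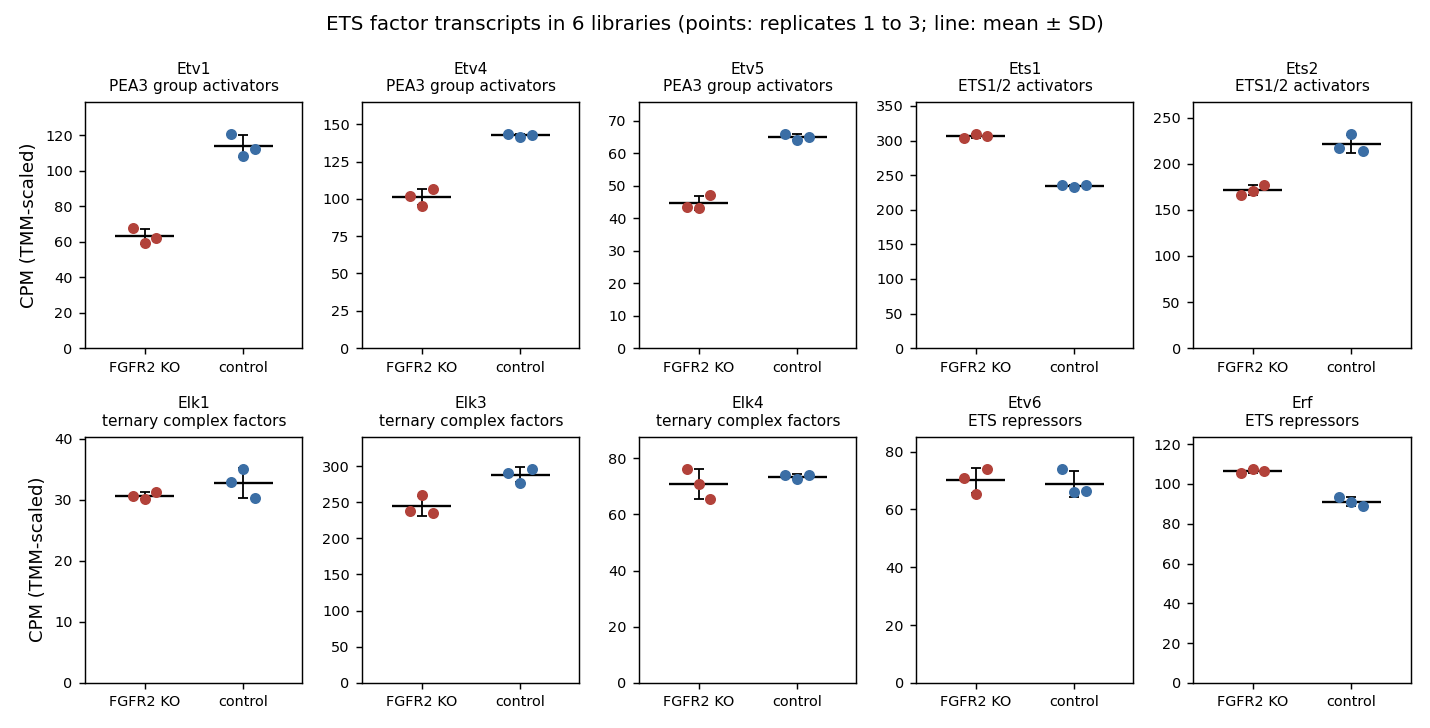
Level of each of the 10 ETS genes in CPM (vertical axes from 0) in the FGFR2 KO and control libraries, with 1 point per replicate and the mean ± SD as lines. The groups are apart for Etv1, Etv4, Etv5, Ets2 and Elk3 (KO below), and for Ets1 and Erf (KO above), and overlap for Elk1, Elk4 and Etv6.

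The whole PEA3 group was lower in the KO libraries. Etv1 (chromosome 12, 38779380 to 38870484, plus strand) had 67.7, 59.6 and 62.0 CPM in KO replicates 1 to 3, against 120.8, 108.5 and 112.4 CPM in control replicates 1 to 3. Every KO library lay below every control library, and the fitted level in KO libraries was 0.554 of that in control libraries. This was a log2 fold change of -0.85 with an SE of 0.051 (95% interval -0.96 to -0.75, adjusted p = 7.43e-17 by edgeR). Its size exceeded that of 91.1% of tested genes. ETV1 is best known in humans as a partner of translocations in sarcoma and prostate cancer.

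Etv4, also called PEA3 and known for its part in mammary tumours and branching epithelia, lies on chromosome 11 (101769742 to 101785371, minus strand). It had 101.6, 95.5 and 106.5 CPM in KO replicates 1 to 3 and 143.5, 141.2 and 142.8 CPM in control replicates 1 to 3. The control libraries were almost level, and the KO libraries stood apart below them with a wider spread (SD 5.54 CPM in KO and 1.16 CPM in control, n = 3 each). The log2 fold change was -0.49 (SE 0.044, edgeR adjusted p = 5.90e-12).

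Etv5 (ERM), which works beside Etv4 in branching organs, lies on chromosome 16 (22381309 to 22439719, minus strand). It was the least abundant of the group in CPM, with 43.5, 43.1 and 47.0 CPM in KO replicates 1 to 3 and 66.0, 64.1 and 65.1 CPM in control replicates 1 to 3. Again no KO library reached the lowest control library. The log2 fold change was -0.55 (SE 0.055, edgeR adjusted p = 1.28e-10).

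The 95% interval of the log2 fold change of Etv1 lay wholly below those of Etv4 (-0.58 to -0.40) and Etv5 (-0.66 to -0.43), which overlapped each other. A ratio of 2 genes within a library does not depend on how libraries are scaled. Per exon length, Etv1 stood at 0.156, 0.146 and 0.136 of Etv4 in KO replicates 1 to 3 and at 0.196, 0.179 and 0.184 in control replicates 1 to 3. The groups did not overlap, and the log2 ratio differed by -0.36 (exact permutation test, two-sided p = 0.1, the smallest that 3 against 3 libraries allow). Etv5 stood at 0.324, 0.342 and 0.334 of Etv4 in KO replicates 1 to 3 and at 0.348, 0.344 and 0.345 in control replicates 1 to 3. That difference was small (log2 ratio -0.05, exact permutation p = 0.1), although these groups did not overlap either. The 4 ratios given were chosen after the values were seen. In each of them the groups did not overlap, which by itself fixes p at 0.1 with 3 against 3 libraries. The p therefore adds nothing to that.

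Ets1 and Ets2, near relatives with a conserved ERK site before the Pointed domain, moved in opposite directions. Ets1 (chromosome 9, 32636221 to 32757820, plus strand), which is tied to invasion and to matrix protease genes, was higher. It had 303.5, 309.5 and 306.4 CPM in KO replicates 1 to 3, against 235.7, 232.4 and 235.4 CPM in control replicates 1 to 3. The KO libraries all lay above the control libraries, with SDs of 2.99 CPM in KO and 1.83 CPM in control libraries. Its log2 fold change of 0.39 had an SE of 0.036 and a 95% interval of 0.31 to 0.46 (adjusted p = 1.13e-11 by edgeR).

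Ets2 (chromosome 16, 95702075 to 95721051, plus strand) was lower, with 166.7, 170.6 and 177.4 CPM in KO replicates 1 to 3 and 217.3, 232.4 and 213.8 CPM in control replicates 1 to 3. No KO library reached a control library. Its log2 fold change of -0.37 had an SE of 0.040 and a 95% interval of -0.45 to -0.29 (adjusted p = 8.77e-10 by edgeR). Per exon length, Ets1 was 1.24, 1.24 and 1.18 times Ets2 in KO replicates 1 to 3 and 0.740, 0.682 and 0.751 times Ets2 in control replicates 1 to 3. The log2 ratio differed by 0.75 (exact permutation p = 0.1). Per exon length the pair thus stood in the opposite order in the KO and the control libraries, whereas by mean CPM Ets1 stood above Ets2 in both (306 and 172 CPM in KO, 235 and 221 CPM in control libraries).

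**Figure D2:**
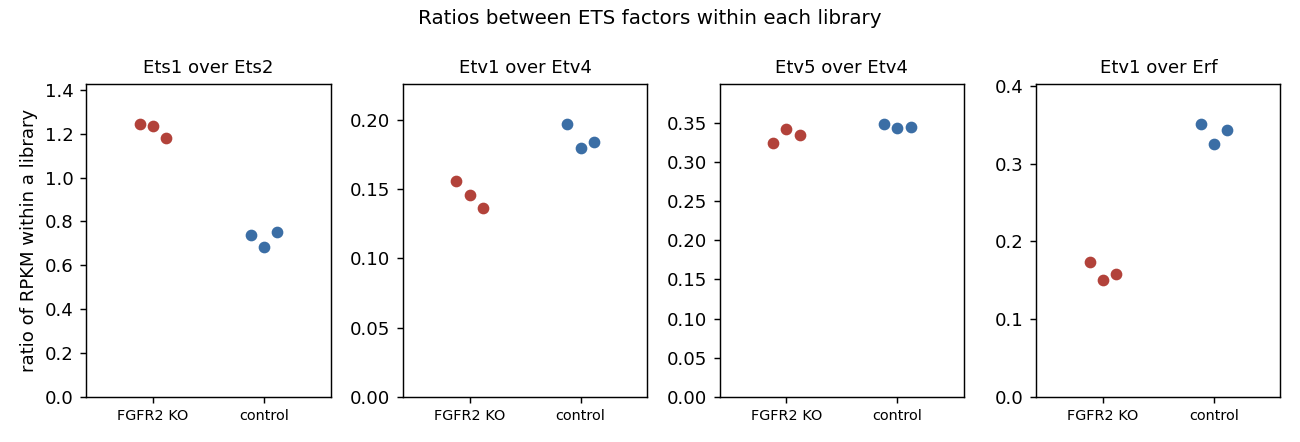
Ratio of the level of 1 ETS gene to another within each library, per exon length (RPKM over RPKM, axes from 0), with 1 point per replicate. Ets1 over Ets2 is 1.18 to 1.24 in the FGFR2 KO libraries and 0.682 to 0.751 in the control libraries, Etv1 over Etv4 and Etv1 over Erf are lower in KO, and Etv5 over Etv4 is nearly level.

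Among the ternary complex factors, only Elk3 passed the test. Elk3 (Net; chromosome 10, 93247414 to 93311135, minus strand) represses SRF target genes until ERK phosphorylates it. It had 238.3, 260.5 and 235.7 CPM in KO replicates 1 to 3 and 290.8, 276.2 and 296.3 CPM in control replicates 1 to 3. The groups did not overlap, and KO replicate 2 came nearest to the control libraries. The log2 fold change was -0.23 (SE 0.040, edgeR adjusted p = 6.01e-06). Of its exon length, 6.95% also lies in exons of Cdk17 on the opposite strand, and whether reads were counted by strand is not given in the sources used here.

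Elk1 (chromosome X, 20933395 to 20950608, minus strand), the best studied activator of the 3, had 30.6, 30.1 and 31.3 CPM in KO replicates 1 to 3 and 32.9, 35.1 and 30.3 CPM in control replicates 1 to 3. Its groups overlapped (log2 fold change -0.10, 95% interval -0.24 to 0.04, edgeR adjusted p = 0.236). Elk4 (SAP-1; chromosome 1, 132007607 to 132032612, plus strand) had 76.3, 70.9 and 65.6 CPM in KO replicates 1 to 3 and 74.0, 72.5 and 74.0 CPM in control replicates 1 to 3. The KO libraries spread to both sides of the control libraries (log2 fold change -0.05, 95% interval -0.16 to 0.06, edgeR adjusted p = 0.426).

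Of the 2 repressors, Erf was higher. Erf (chromosome 7, 25242561 to 25250761, minus strand), which holds back ETS target genes while ERK activity is low, had 105.6, 107.7 and 106.6 CPM in KO replicates 1 to 3 and 93.5, 90.7 and 88.9 CPM in control replicates 1 to 3. All KO libraries lay above all control libraries (log2 fold change 0.23, SE 0.044, 95% interval 0.14 to 0.32, edgeR adjusted p = 4.24e-05). Per exon length, Etv1 stood at 0.174, 0.150 and 0.158 of Erf in KO replicates 1 to 3 and at 0.350, 0.325 and 0.343 in control replicates 1 to 3, a log2 ratio difference of -1.08 (exact permutation p = 0.1).

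Etv6 (TEL; chromosome 6, 134035700 to 134270158, plus strand), a repressor with a Pointed domain that is often fused in leukaemia, had 71.0, 65.3 and 73.9 CPM in KO replicates 1 to 3. The control replicates 1 to 3 had 74.1, 66.2 and 66.5 CPM. The groups covered almost the same range (log2 fold change 0.02, 95% interval -0.09 to 0.14, edgeR adjusted p = 0.736).

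**Figure D3:**
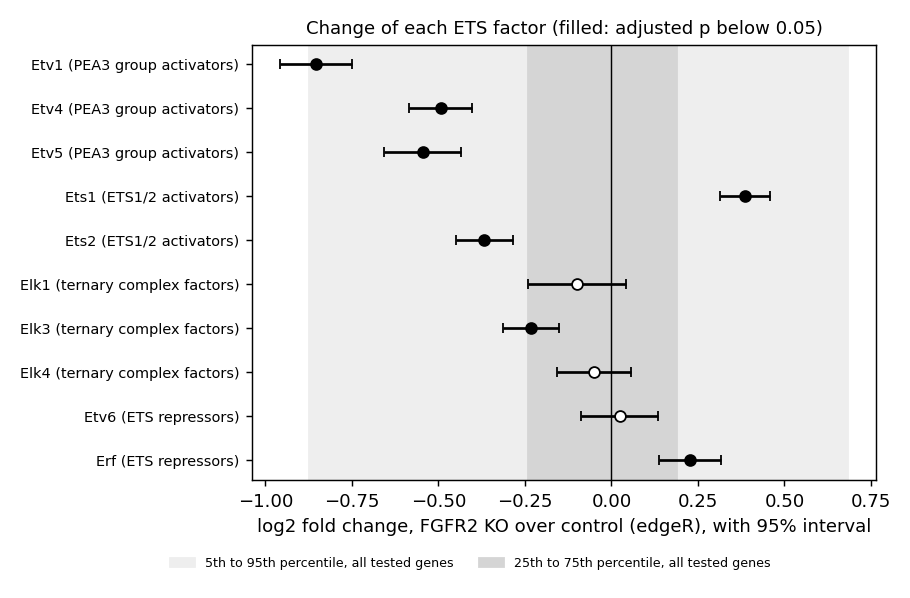
Log2 fold change of each ETS gene, FGFR2 KO over control, with its 95% interval (edgeR), over grey bands that hold the central part of all 12158 tested genes. Etv1 at -0.85 lies near the band's lower edge of -0.87 (5th percentile), and Elk1, Elk4 and Etv6 have intervals that include 0.

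The changes were modest in size. Tested against a minimum fold change of 1.5, which 7.46% of all tested genes passed, Etv1 alone of the 10 kept its call (edgeR glmTreat adjusted p = 1.64e-05).

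Levels were compared between genes as RPKM, TMM-scaled CPM divided by the kilobases of annotated exon. In the KO libraries the order from high to low was Elk3 (53.8 ± 2.99), Ets1 (36.2 ± 0.352), Etv4 (32.6 ± 1.79), Ets2 (29.7 ± 0.937), Erf (29.6 ± 0.281), Etv6 (11.7 ± 0.735), Elk4 (11.1 ± 0.831), Etv5 (10.9 ± 0.522), Elk1 (5.70 ± 0.105) and Etv1 (4.75 ± 0.315 RPKM, SD, n = 3 libraries). Among neighbours in that order, Ets2 and Erf, Etv6 and Elk4, and Elk4 and Etv5 overlapped between libraries. In the control libraries the order was Elk3 (63.2 ± 2.28), Etv4 (45.9 ± 0.374), Ets2 (38.3 ± 1.71), Ets1 (27.7 ± 0.216), Erf (25.2 ± 0.643), Etv5 (15.9 ± 0.220), Etv6 (11.5 ± 0.748), Elk4 (11.5 ± 0.134), Etv1 (8.57 ± 0.472) and Elk1 (6.09 ± 0.443 RPKM, SD, n = 3 libraries). There only Etv6 and Elk4 overlapped. Per exon length, Etv4 and Ets2 thus stood above Ets1 in the control libraries, and Ets1 above both in the KO libraries.

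**Figure D4:**
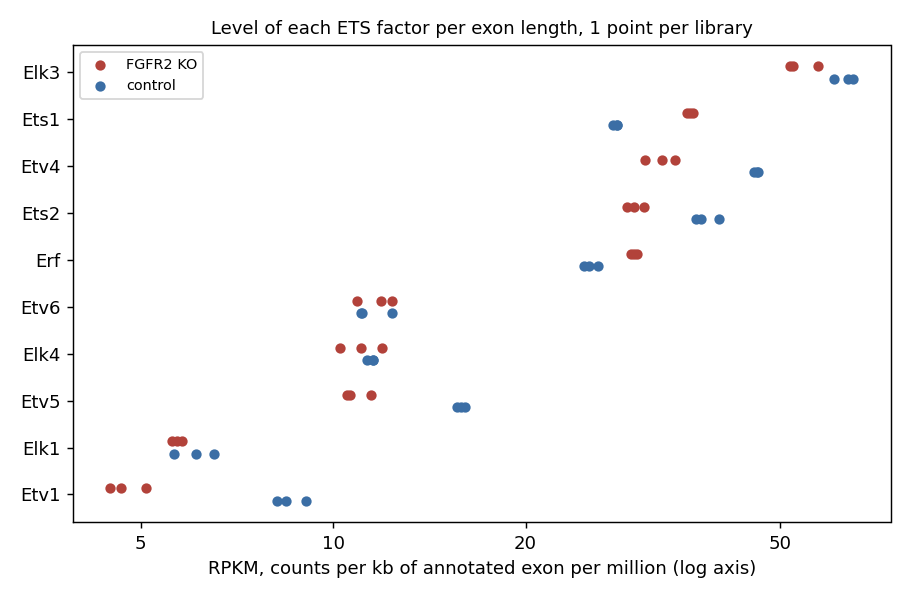
RPKM of each ETS gene (log axis), sorted by its mean in the FGFR2 KO libraries, with 1 point per library and the KO points above the control points. Elk3 is highest in both groups, and Ets1 lies above Etv4 and Ets2 in KO and below them in control libraries.

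The place of Etv1 in these orders depends on the length used. Its annotated exons cover 13296 bases over 13 transcript models, whereas its longest model has 6576 bases. With the longest model as the length, Etv1 ranked 9 of 10 in the KO libraries (9.60 RPKM) and 6 of 10 in the control libraries (17.3 RPKM). Other places moved too. Ets1 ranked 1 of 10 in KO libraries (60.3 RPKM) above Elk3 (58.1 RPKM), and Ets2 (44.1 RPKM) stood above Etv4 (42.3 RPKM) there. In control libraries Etv6 ranked 9 of 10 (12.1 RPKM).

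By likeness of pattern over the 6 libraries (Pearson r of log2 CPM), the genes nearest to Etv1 were Tgfa, Sec23a and Csad, those nearest to Etv4 were Lmntd2, Man2c1 and Pmvk, and those nearest to Etv5 were Pink1, Mettl27 and Cdk5rap3. The libraries form 2 groups of 3, so r mostly measures the step between the groups, and for Etv1 1103 of 9827 candidate genes had an r above 0.95.

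Levels in the rest of the ETS family ranged widely. Of 17 further ETS genes, 16 were in the table and 7 of these could be tested, beside 12158 of all 31017 genes in the table. Of the 7, 3 fell, 1 rose and 3 did not pass (median log2 fold change -0.06), beside a call for 54.6% of all tested genes. Etv2, Elf5, Spic, Fli1 and Fev had 0 counts in every library, which allows at most 0.193 CPM in a library at 3 counts. Spdef, Spi1, Spib and Erg had at most 5 counts in any library, and Etv3l was not analysed here. Gabpa, the ETS subunit of GABP, a factor for mitochondrial and housekeeping genes, fell to 86.2, 82.2 and 81.9 CPM in KO replicates 1 to 3, against 102.8, 102.2 and 105.3 CPM in control replicates 1 to 3 (log2 fold change -0.31, SE 0.045, edgeR adjusted p = 3.66e-07). Etv3, a repressor related to Erf, averaged 52.0 ± 1.64 CPM in KO and 58.5 ± 0.918 CPM in control libraries (SD, n = 3 each, log2 fold change -0.17, edgeR adjusted p = 0.0075). The epithelial factor Elf3 also fell (-0.26, edgeR adjusted p = 0.0078). Elf1 rose by 0.14 on the log2 scale (edgeR adjusted p = 0.0102), a call lost without control replicate 2 (0.0501) or control replicate 3 (0.0616).

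Of 28 tested genes of the RAS and ERK cascade that acts on these factors, 11 fell, 5 rose and 12 did not pass (median log2 fold change -0.01), beside 27.5% of all tested genes that fell and 27.1% that rose. The 6 with the smallest adjusted p were on both sides. Ksr1, a scaffold that holds RAF, MEK and ERK together, averaged 31.9 ± 0.519 CPM in KO libraries and 62.2 ± 3.33 CPM in control libraries (SD, n = 3 each), a log2 fold change of -0.96 (edgeR adjusted p = 1.89e-16). The kinase genes Map2k1 (MEK1) and Mapk3 (ERK1) fell (log2 fold changes -0.39 and -0.43), and the adaptor Shc1 fell by 0.27. Ptpn11, which encodes the phosphatase SHP2 that relays receptor signals to RAS, rose by 0.33, and Hras rose by 0.49. The edgeR adjusted p of these 5 ran up to 4.14e-07, for Shc1.

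All 17 genes listed as regulators or partners of ETS factors could be tested, and 2 fell, 6 rose and 9 did not pass (median 0.03), beside the same shares of all tested genes (27.5% lower and 27.1% higher). Cic, the repressor of the PEA3 genes that ERK inactivates, averaged 144 ± 8.61 CPM in KO libraries and 167 ± 5.03 CPM in control libraries (SD, n = 3 each). Cic was thus lower in KO libraries (log2 fold change -0.22, edgeR adjusted p = 6.98e-05). Its partner gene Atxn1 rose by 0.28 (edgeR adjusted p = 0.0020). Det1, part of the ubiquitin ligase that degrades PEA3 proteins, fell by 0.48 from a low level, with 8.40 ± 1.01 CPM in KO and 11.7 ± 0.714 CPM in control libraries (edgeR adjusted p = 0.00104). The coactivator gene Crebbp rose by 0.35 (edgeR adjusted p = 1.65e-06). Among the 9 genes that did not pass were Atxn1l, Cop1 and Ep300. Their log2 fold changes were 0.02, 0.02 and 0.03 (edgeR adjusted p = 0.699, 0.796 and 0.561). Srf, the partner of the ternary complex factors, averaged 103 ± 3.72 CPM in KO and 101 ± 3.65 CPM in control libraries and did not pass (log2 fold change 0.03, edgeR adjusted p = 0.576). Mkl1, which competes with those factors for SRF, rose by 0.16 (edgeR adjusted p = 0.0102), a call lost without control replicate 1 (0.0540).

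The 12 textbook targets of SRF with ternary complex factors split, with 5 lower, 5 higher and 2 without a call (median 0.03), beside 27.5% lower and 27.1% higher among all tested genes. The Egr genes fell together. Egr1 averaged 223 ± 14.5 CPM in KO and 554 ± 16.5 CPM in control libraries (log2 fold change -1.31, edgeR adjusted p = 3.52e-26, SD, n = 3 each), and Egr2 and Egr3 had log2 fold changes of -1.53 and -1.25. Ier2 fell by 0.51. Fos, from the same class of fast serum-induced genes, rose by 0.27 to 508 ± 17.0 CPM in KO libraries, against 422 ± 10.2 CPM in control libraries (edgeR adjusted p = 3.68e-08). Fosb rose by 0.16 with overlapping groups, the cytoskeletal gene Vcl by 0.29 and the matricellular gene Cyr61 by 1.14. Junb fell by 0.14 with overlapping groups, a call lost with DESeq2 (adjusted p = 0.119) and without control replicate 1 (0.0536), and Mcl1 rose by 0.12, a call lost without KO replicate 2 (0.0601). Actb, at 3484 ± 13.2 CPM in KO and 3416 ± 71.4 CPM in control libraries, did not pass, and neither did Srf. The part of the serum and of the collagenase step in the levels of these genes was not tested.

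Of 12 tested textbook targets of ETS1, ETS2 and the PEA3 group, 7 fell, 2 rose and 3 did not pass (median -0.35). Of all tested genes, 27.5% fell and 27.1% rose. The list was chosen with earlier results of these data known, so these shares only describe it. The secreted matrix proteases fell most. Mmp13 averaged 21.9 ± 2.06 CPM in KO and 107 ± 4.32 CPM in control libraries (SD, n = 3 each, log2 fold change -2.28, edgeR adjusted p = 8.64e-28), and Mmp3 and Mmp9 fell as well (log2 fold changes -1.48 and -1.42). Plau, the urokinase gene with a classic ETS and AP-1 enhancer, fell by 0.39. Cyclin D1 (Ccnd1), Spry4 and Vim fell too (-0.55, -0.79 and -0.31). Against that direction the membrane protease gene Mmp14 rose by 0.78 and Ptgs2, the inducible cyclooxygenase, rose by 1.12 to 838 ± 26.9 CPM in KO libraries, against 387 ± 11.8 CPM in control libraries. Dusp6, an ERK phosphatase and common readout of the pathway, had a log2 fold change of -0.04 (edgeR adjusted p = 0.396), Plaur of -0.06 and Ccnd2 of -0.05, and none of the 3 passed. Mmp7 had 0 counts in all libraries, and Cdh5 had at most 2 counts in any library. The comparison does not tie any gene of this list to 1 of the 10 factors.

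**Figure D5:**
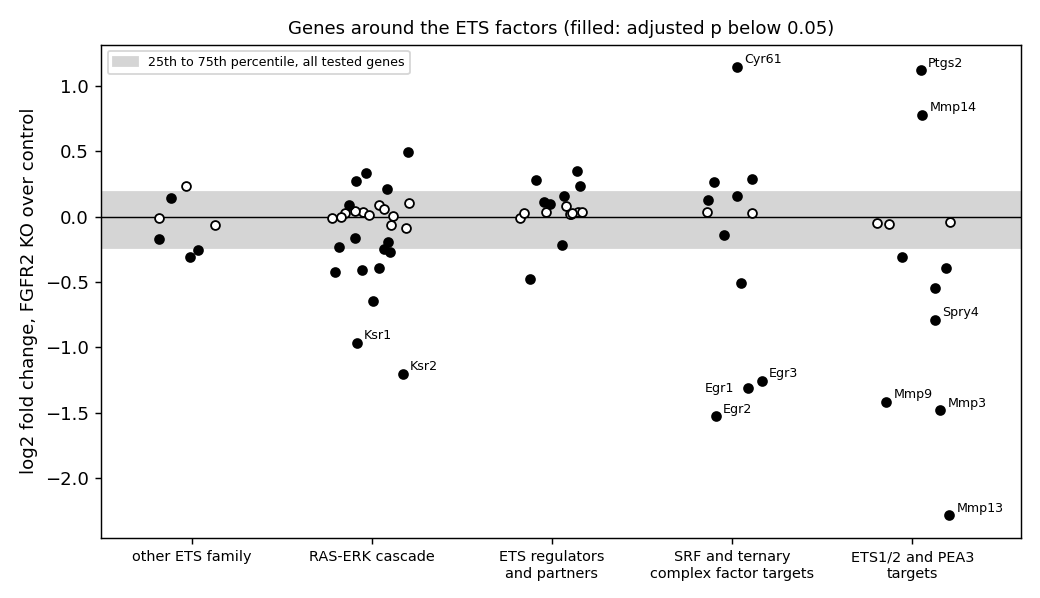
Log2 fold change, FGFR2 KO over control, of the tested genes in 5 lists around the ETS factors, with 1 point per gene (filled: adjusted p below 0.05) over a grey band for the middle of all tested genes. Points lie on both sides of 0 in every list, and the widest spread is among the targets, from Mmp13 at -2.28 to Cyr61 at 1.14.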

How the data were processed

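The authors deposited whole-number read counts per gene for 6 libraries, not normalized. The submitters' processing notes name FastQC 0.11.9, STAR 2.7.9a, featureCounts and R 4.1.1, and the builds hg38 and mm10. Not given in the sources used here are the annotation release, the strand setting and the treatment of reads over several genes. Of the 31017 symbols, 98.2% occur in GENCODE M21 (mm10), the source of positions and exon lengths, and 0 value columns were left unassigned.

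The deposited counts were filtered (filterByExpr, minimum count 10, total 15), TMM-scaled and analysed in edgeR 4.0.16 (R 4.3.3) by its quasi-likelihood F-test, with the group as the only term, p-values adjusted by Benjamini-Hochberg over 12158 genes and a threshold of 0.05. CPM, RPKM, SE (fold change over the square root of F) and 95% intervals were computed from that fit. SD is over the 3 libraries of a group. Library totals ran from 15531790 to 20447719 counts. Each library was counted as 1 replicate. Replicate pairs of a group differed by more than counting noise (chi-square per degree of freedom 2.29 to 4.87), which does not show that they were grown separately. The labels do not say that a replicate number marks a shared culture or day, so numbers were not used as a block in the main fit. Same-numbered libraries did not deviate together (r = -0.066, 0.040 and -0.064). With 3 libraries in a group, these values cannot decide whether libraries were paired.

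Alternatives were DESeq2 1.42.0, limma-voom (limma 3.58.1), 3 other scalings, 2 other filters, a minimum fold change of 1.5, a replicate block and each library left out. Counts were simulated over 12064 genes, with 50 genes changed at each fold. They gave back 66% of genes changed 1.25-fold, 80% at 1.5-fold and 94% at 2-fold, with 2.86% of calls false. The simulated share of changed genes was far below the 54.6% called here, so these rates need not hold for this comparison. The members and gene lists were chosen with earlier results of these data known. All 10 members were named, with all tested targets, up to 6 called genes of the family and cascade lists, any regulator, and the 3 genes nearest in pattern to each PEA3 gene. Protein sequences were not used here.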

Additional observations from a re-analysis of the deposited data

How the results depend on the processing

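All 7 calls among the 10 ETS genes, with their directions, held under DESeq2, limma-voom, DESeq2 size factors, upper quartile scaling, library totals alone, no filter, a filter of 5 CPM and each library left out. Against a minimum fold change of 1.5 the calls came down to 1 member (1 lower and 0 higher in KO, Etv1 being the one), and to 907 of all tested genes (402 higher and 505 lower). The labels do not say whether the replicate numbers pair the libraries, and with a replicate block 7 members and 6443 genes of all were called. With each library left out, the log2 fold change of Elk4 ran from -0.10 to 0.0038 and that of Etv6 from -0.016 to 0.080, so neither has a direction. Every scaling moved the median of all genes by less than 0.1, the largest shift being -0.0225 with upper quartile scaling. Without length correction, ranks in the KO libraries by CPM were Etv1 8, Etv4 5, Etv5 9, Ets1 1, Ets2 3, Elk1 10, Elk3 2, Elk4 6, Etv6 7 and Erf 4, and in the control libraries Ets1 ranked 2 and Ets2 3, so the change in their order holds only per length. The longest transcript as length, the GGAA core and the within-library ratios were chosen after seeing the data. For the genes without a call, the 95% intervals leave room for log2 differences of -0.24 to 0.04 (Elk1), -0.16 to 0.06 (Elk4) and -0.09 to 0.14 (Etv6).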
